A study of Schizosaccharomyces pombe with 18 samples.

Results

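The 5 genes described here encode the subunits of SHREC, a repressor complex of the fission yeast Schizosaccharomyces pombe: clr1 (SPBC2D10.17), clr2 (SPAC1B3.17), clr3 (SPBC800.03), mit1 (SPBP35G2.10) and chp2 (SPBC16C6.10). They were taken from the deposited table by systematic ID, ignoring the transcript suffix, and all 5 were found among its 7018 genes and passed the filter on low values that left 6693 genes for testing. SHREC acts in heterochromatin, the silent chromatin of centromeres, telomeres and the mating-type region. Clr3 is a histone deacetylase that removes acetyl groups from the tail of histone H3, Mit1 is an ATP-driven nucleosome remodeler of the Snf2 superfamily, and Chp2 is an HP1-type protein that binds methylated histone H3. Clr1 is a zinc-finger protein and Clr2 a further subunit; together with Clr3 they are needed for silencing.

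RNA was sequenced from 18 cultures in 6 groups of 3 biological replicates: wild type (WT) and strains deleted for each gene, written clr1D, clr2D, clr3D, mit1D and chp2D. Every strain was labelled h- and carried leu1-32 and ura4-D18. WT, mit1D and chp2D also carried ade6-210, arg3-D4 and his3-D1. The clr strains were labelled arg3D and his3D, with ade6-210 in clr3D, ade6-216 in clr2D and an allele given as 210 or 216 with a question mark in clr1D. The deletions were marked with KanMX4 in clr1D, his7+ in clr2D, kanMX6 in clr3D, Natmx6 in mit1D and KanR in chp2D. All replicates of a group have 1 strain number, so they are cultures of 1 strain and a second isolate of each deletion was not analysed here. Cultures of 25 ml were grown in rich YES medium at 25 °C. The library names of mit1D and chp2D form another series than those of WT and the clr strains, so for these 2 deletions the strain and the library series cannot be told apart when they are compared with WT.

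Levels are given as FPKM, fragments per kilobase of transcript relative to the size of the library, deposited by the authors and then scaled between libraries (the median ratio of each library to all). Depth, recovered from the FPKM values, ran from 26.2 M to 101.8 M reads per library. The SHREC genes had 637 to 8806 reads in the libraries of strains where they are intact, a counting error of 3.96% to 1.07% per value. The gene ura4 was listed at 0 in all libraries, and his7, the marker of clr2D, stood at 337 ± 10.5 scaled FPKM in clr2D against 144 ± 2.38 in WT (SD, n = 3). At the same time his3 had 17.3 to 22.9 and arg3 2.76 to 3.40 scaled FPKM as group means, although both are labelled as deleted. Reads of both mating-type marker sets were found: in WT the 6 M cell markers ran from 6.67 (mfm1) to 98.5 (mfm2) scaled FPKM, and the P cell markers map2 and map3 had 35.1 and 21.6. The level of mfm2 was 0.468 to 0.630 times WT in clr1D, clr2D, mit1D and chp2D. It was called lower in each (limma adjusted p from 0.00014 to 0.0057). No other M cell marker was called in clr1D, clr2D or mit1D. In chp2D mam2 was also called lower (0.877 times WT, limma adjusted p = 0.023) and map3 higher (1.07 times WT, limma adjusted p = 0.049). In clr3D only sxa2 was called (0.806 times WT, limma adjusted p = 0.0012). The part of these markers in the results was not tested.

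Among the 5 SHREC genes, clr2 varied most over the strains where it is intact. Its upstream sequence is shown beside that of clr3, the most abundant of the 5 transcripts. The level of clr3 did not pass the test in any strain where it is intact. Both sequences are the 250 bases before the annotated transcript start, plus strand, 5′ to 3′, read from RefSeq assembly ASM294v3 with that assembly's own coordinates. Capitals would mark a match to 1 of 4 motifs, and neither sequence holds one.
clr2, chrI:4964243-4964492: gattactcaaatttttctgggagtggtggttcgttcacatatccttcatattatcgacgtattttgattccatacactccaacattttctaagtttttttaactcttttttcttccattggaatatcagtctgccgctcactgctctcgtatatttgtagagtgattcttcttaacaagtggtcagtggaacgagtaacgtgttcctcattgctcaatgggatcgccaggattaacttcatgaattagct
clr3, chrII:254436-254685: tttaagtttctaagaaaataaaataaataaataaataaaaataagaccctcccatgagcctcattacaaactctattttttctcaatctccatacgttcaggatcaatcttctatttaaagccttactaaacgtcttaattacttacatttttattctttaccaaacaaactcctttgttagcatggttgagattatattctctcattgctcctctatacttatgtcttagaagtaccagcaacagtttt

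The motifs searched on both strands were the TATA box (TATAAA), the core of the site of Atf1-Pcr1, a pair of factors that recruit silencing proteins to the mating-type region (TGACGT), the repeat unit bound by the telomere protein Taz1 (GGTTACA) and the HomolD box of ribosomal protein genes (CAGTCACA). None of them occurs in the window of clr1, clr2 or clr3. Over all 5144 windows of this length the shares with a match were 44.4%, 5.54%, 2.06% and 2.61%. The 5′ leader of clr2 in this annotation is 783 bases long. Of 4512 annotated leaders, 97.2% are shorter, and their median length is 97 bases. For mit1 and chp2 that annotation starts the transcript at the start codon, and their windows are not shown. Both of these windows hold a match to the TATA box and to no other of the motifs. Windows of that kind were not left out of the 5144.

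In the deposited table, on build ASM294v2, clr2 lies on chromosome I from 4964526 to 4966980 and the other 4 genes lie on chromosome II. There clr3 runs from 254715 to 257138, mit1 from 981944 to 986422, clr1 from 2997081 to 3001136 and chp2 from 4349487 to 4351244. The transcript lengths behind the FPKM values are 4056 bases for clr1, 2455 for clr2, 2424 for clr3, 4479 for mit1 and 1721 for chp2, the last after removal of an intron.

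The RNA levels of the subunits were not equal. In WT, on the scale of FPKM per length, clr3 was the highest at 35.9, 35.8 and 35.6 in replicates 1 to 3 (35.7 ± 0.15, SD, n = 3). The level of clr2 followed at 19.6, 19.4 and 20.3 (19.8 ± 0.50). The remaining genes lay close together: mit1 at 13.7, 13.2 and 13.6 (13.5 ± 0.27), chp2 at 12.4, 13.5 and 13.4 (13.1 ± 0.58), and clr1 at 13.5, 12.3 and 13.1 (13.0 ± 0.64). The order clr3 over clr2 over the other 3 held in every WT library with no overlap, whereas the values of mit1, chp2 and clr1 overlapped and their neighbours in the order do not differ beyond their spread. Within a library, where scaling cancels, the clr2 level was 0.541 to 0.572 times that of clr3, and the clr1 level 0.930 to 0.987 times that of mit1. Against the 5027 tested protein-coding genes, with a median WT level of 37.0, 48.6% had a lower level than clr3, 22.8% than clr2, 12.4% than mit1, 11.7% than chp2 and 11.4% than clr1.

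**Figure D1:**
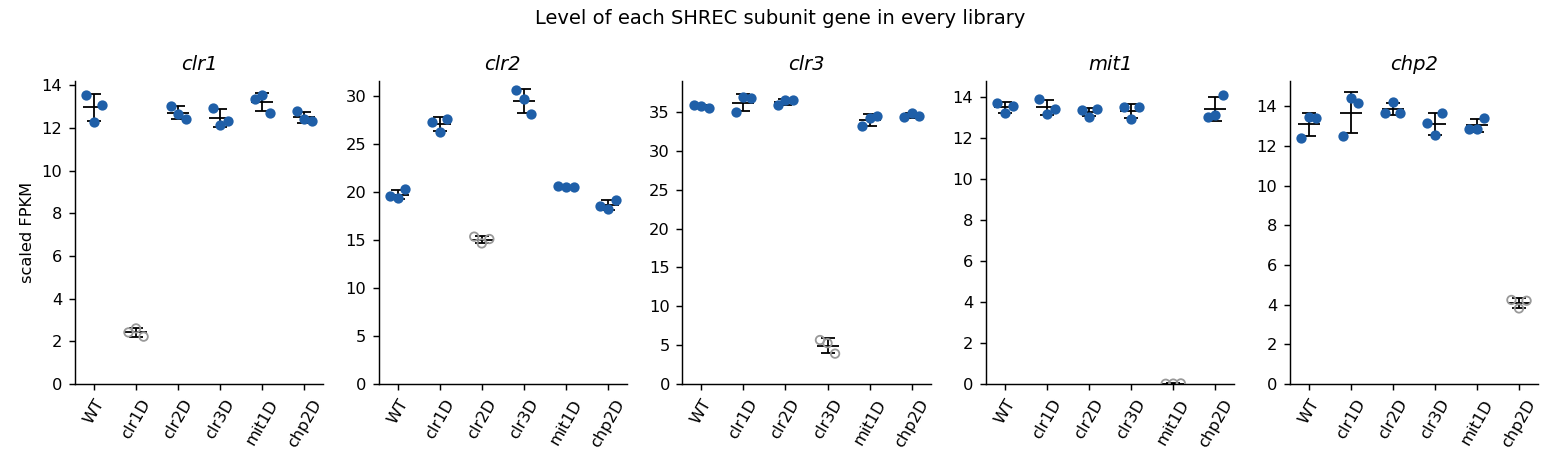
Scaled FPKM (vertical axes, each from 0) of the 5 SHREC genes in each library, by strain; filled points are strains where the gene is intact, open points its own deletion strain, and bars the mean ± SD of 3 libraries. The clr2 points of clr1D and clr3D (26.3 to 30.7) lie above those of WT (19.4 to 20.3), while the filled points of the other 4 genes stay near their WT level.

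The deleted genes were read in their own strains as a check of the labels, and the reads left there differed widely between genes. For mit1, 1, 2 and 5 reads remained in mit1D replicates 1 to 3, or 0.117% of the WT level with a 95% interval of 0.0506 to 0.231% (exact Poisson interval on the 8 reads, counting error only). For clr3 the 3 libraries of clr3D had 5.65, 5.24 and 3.89 scaled FPKM, which is 13.8% of WT. The chp2 level in chp2D was 4.24, 3.81 and 4.20 (31.1%), and the clr1 level in clr1D was 2.41, 2.60 and 2.22 (18.6%). For clr2 the libraries of clr2D had 15.4, 14.7 and 15.1, or 76.2% of WT. All 5 genes were thus lower in their own strain than in any WT library, clr2 by the least.

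These shares were set beside the part of each transcript that does not code for protein. The extent of each deletion is not given in the sources used here. By the coding lengths of the RefSeq annotation, the non-coding bases made up 14.9% of the clr3 transcript (360 bases) and 33.6% of that of chp2 (578 bases). The residual level divided by this share was 0.929 for clr3 and 0.927 for chp2. The non-coding share was 34.3% for clr2 (841 bases) and 8.36% for clr1 (339 bases), and the same quotient came to 2.22 for clr2 and 2.23 for clr1. For mit1 it was 0.0236, with a non-coding share of 4.96%. So the reads left on clr3 and chp2 were close to what the non-coding length alone would hold at the WT level, those on clr1 and clr2 were over that, and those on mit1 far under it. Where on the transcripts the reads lie, and whether the marker cassette contributes, was not tested.

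**Figure D2:**
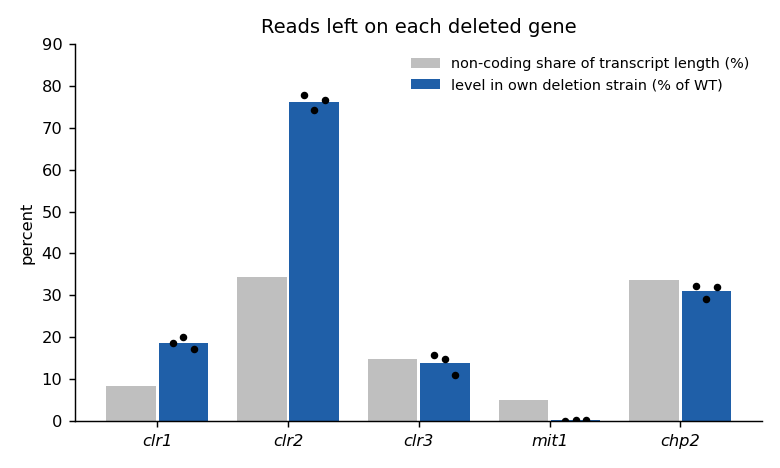
For each SHREC gene, the non-coding share of its transcript length (grey bars, %) and its level in its own deletion strain (blue bars, mean of 3 libraries as % of the WT mean; points are libraries). The 2 bars are about equal for clr3 and chp2, and the blue bar is 76.2% against 34.3% for clr2.

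In the strains deleted for another subunit, 4 of the 5 genes stood near their WT level and clr2 was higher in 2 strains. Each gene was compared with WT in the 4 strains where it is intact, 20 tests in all, with limma over all tested genes and a call at an adjusted p under 0.05. Only 2 of the 20 passed, and both were rises of clr2. Among all tested genes, 17.6% were called in clr1D, 12.3% in clr2D, 29% in clr3D, 27.2% in mit1D and 22.6% in chp2D. The shares called higher were 9.31%, 7.31%, 14.9%, 14.7% and 12% in that order of strains, and the shares called lower 8.29%, 4.99%, 14.1%, 12.5% and 10.7%. With FPKM as deposited, the calls that were higher went from 52.9% to 79.4% of all calls in clr1D, from 59.4% to 73.2% in clr2D, from 54.1% to 39.5% in mit1D and from 52.9% to 32.9% in chp2D. With a replicate block fitted over WT and the clr libraries alone, the counts of called genes went from 1178 to 1828 in clr1D and from 823 to 1404 in clr2D.

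In clr1D the clr2 level was 27.3, 26.3 and 27.7 scaled FPKM, against 19.6, 19.4 and 20.3 in WT. All clr1D libraries lay above all WT libraries. The mean was 27.1 ± 0.71 (n = 3), 1.37 times that of WT, with a log2 fold change of 0.44 ± 0.03 (SE, limma adjusted p = 1.9e-07). In clr3D the level was 30.7, 29.7 and 28.2 (29.5 ± 1.27), again above every WT library. It came to 1.49 times WT, with a log2 fold change of 0.56 ± 0.03 (limma adjusted p = 1.5e-08). By size, 192 of 6693 genes had a larger log2 rise than clr2 in clr1D and 90 in clr3D. The clr strains list other forms of arg3 and his3 than WT, so a difference of strain background cannot be told apart from the deletion here.

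The same rises appear in ratios within a library, which no scaling can change. The ratio of clr2 to mit1 was 1.428 to 1.499 in WT, 1.97 to 2.07 in clr1D and 2.09 to 2.30 in clr3D. The ratio of clr2 to chp2 was 1.44 to 1.58 in WT, 1.82 to 2.19 in clr1D and 2.06 to 2.37 in clr3D. Neither ratio in a clr strain overlapped that of WT.

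The 2 strains also differed from each other. The clr2 level was lower in clr1D than in clr3D by 0.12 ± 0.03 on the log2 scale (limma adjusted p = 0.013), in a comparison where 35.2% of all genes were called, 17.1% higher and 18.1% lower, and the libraries of the 2 strains did not overlap. This call was lost without clr1D replicate 2 (adjusted p = 0.063), without clr3D replicate 1 (adjusted p = 0.070), with FPKM as deposited (log2 difference -0.07, adjusted p = 0.22) and when these 2 groups were fitted alone (adjusted p = 0.080).

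The strains without the remodeler or the HP1 protein had other clr2 values. In mit1D clr2 stood at 20.7, 20.6 and 20.6 (20.6 ± 0.063) and in chp2D at 18.5, 18.2 and 19.2 (18.7 ± 0.51). Every mit1D library lay above, and every chp2D library below, the range of WT, but by little. The log2 fold change was 0.06 ± 0.03 in mit1D (limma adjusted p = 0.21, 95% interval -0.01 to 0.13) and -0.08 ± 0.03 in chp2D (limma adjusted p = 0.11, 95% interval -0.15 to -0.01). Between these 2 strains, which share a library series, clr2 was higher in mit1D by 0.14 ± 0.03, with an unadjusted limma p of 0.0010 that did not hold after adjustment (adjusted p = 0.35). In that comparison 0.164% of genes were called, 0.0896% higher and 0.0747% lower.

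**Figure D3:**
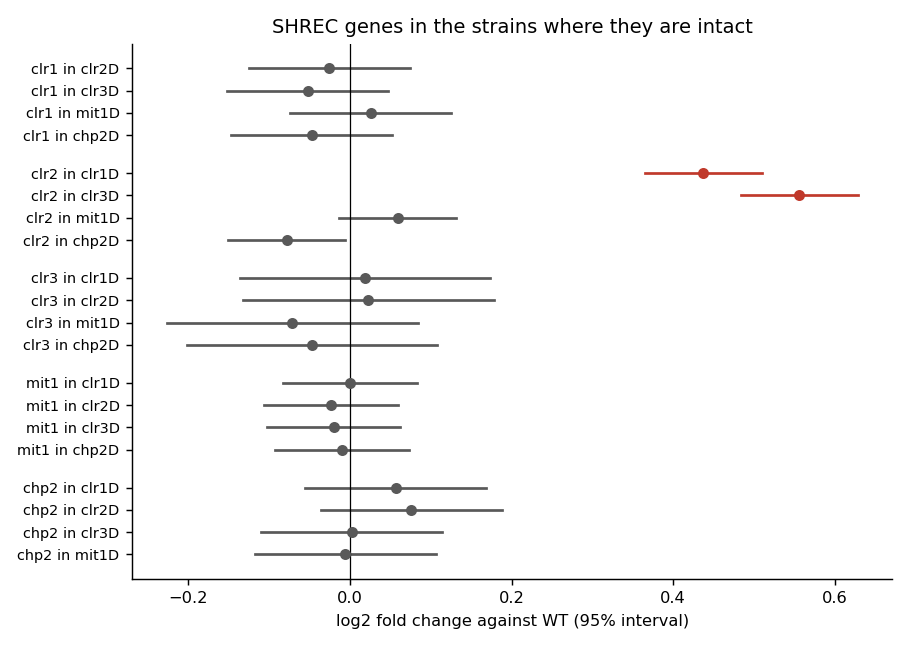
Log2 fold change against WT (horizontal axis) of each SHREC gene in the 4 strains where it is intact; points are estimates, lines 95% intervals of the limma fit, and red marks an adjusted p under 0.05. The red points are clr2 in clr1D (0.44) and in clr3D (0.56), and the other 18 lie between -0.08 and 0.08.

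The deacetylase gene clr3 held a narrow range. It was 34.96, 36.9 and 36.8 scaled FPKM in clr1D and 35.9, 36.5 and 36.6 in clr2D, around the 35.6 to 35.9 of WT. In mit1D it was 33.2, 34.2 and 34.5, and in chp2D 34.3, 34.9 and 34.5. The libraries of these last 2 strains all lay below those of WT, by 4.95% and 3.28% of the WT mean, and neither difference passed the test (limma adjusted p = 0.50 and 0.68). The wide spread of clr3 within clr3D enters the error of that fit. With clr3D left out, the SE of clr3 fell from 0.073 to 0.026 and the adjusted p in mit1D to 0.055, still not called. Since mit1D and chp2D share the other library series, strain and series cannot be told apart for this shift.

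The zinc-finger gene clr1 was 12.7 ± 0.31 in clr2D, 12.5 ± 0.43 in clr3D, 13.2 ± 0.43 in mit1D and 12.5 ± 0.25 in chp2D, and in each strain its libraries overlapped those of WT. The remodeler gene mit1 had 13.5 ± 0.37 in clr1D, 13.3 ± 0.22 in clr2D, 13.3 ± 0.34 in clr3D and 13.4 ± 0.58 in chp2D. The HP1 gene chp2 was 13.7 ± 1.05 in clr1D, 13.9 ± 0.30 in clr2D, 13.1 ± 0.56 in clr3D and 13.0 ± 0.31 in mit1D, and only its clr2D libraries all lay above WT. Over clr1, clr3, mit1 and chp2, the 16 log2 fold changes against WT ran from -0.07 to 0.08. None was called, also with voom on recovered reads. In the fit of all strains the lowest limma adjusted p was 0.39, and no unadjusted p was under 0.05. With clr3D left out, clr3 in mit1D had a limma adjusted p of 0.055. The 95% intervals of the fit of all strains together spanned -0.23 to 0.19, so changes of that size are not shown to be absent. The lower end is that of clr3 in mit1D, and its error includes the spread of clr3 within clr3D, where clr3 is deleted. In the 10 tests of these 4 genes between deletion strains of the same library series none was called either (limma, lowest unadjusted p = 0.14, none with voom). Between clr1D and clr2D 0.478% of all genes were called (0.105% higher, 0.374% lower), and between clr2D and clr3D 31.7% (15.7% higher, 16% lower). Over the libraries where each is intact, the coefficient of variation was 2.49% for mit1, 3.12% for clr3, 3.66% for clr1 and 4.74% for chp2, against 19.6% for clr2.

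Reads of overlapping and adjacent genes were examined next, because it is not stated whether reads were counted by strand, and each deleted locus holds a marker. Of 18 tested genes that overlap a SHREC gene or lie next to it, 9 rose and 2 fell in the strain deleted for that SHREC gene, where 12.3% to 29% of all genes were called. One of these rises, of whi5 in clr3D (limma adjusted p = 0.046), was lost without any of 4 single libraries (adjusted p up to 0.18, without clr3D replicate 2), with FPKM as deposited (adjusted p = 0.058), without the filter on low values (adjusted p = 0.050) and with the 2 groups fitted alone (adjusted p = 0.092). In the other deletion strains the same genes gave 4 rises and 9 falls in 72 tests. Some of the 18 also overlap one another, so these counts are not counts of separate measurements. SPNCRNA.1569 lies mostly within mhf1, and both rose in clr1D and fell in clr3D. The gene coq8 lies within SPNCRNA.1570. Both genes that fell in the deleted strain overlap most of their own length with the deleted gene. The non-coding RNA SPNCRNA.1331 covers clr3 and had 6.38, 6.07 and 4.50 scaled FPKM in clr3D against 34.4 to 34.8 in WT, and SPNCRNA.1401, within mit1, was listed at 0 in every mit1D library. Their counts follow those of the SHREC gene they overlap and are no separate measurement.

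At the mit1 locus both overlapping protein-coding genes rose. The gene nbr1, which encodes a receptor for selective transport of proteins to the vacuole and overlaps the end of mit1 by 40 bases, had 96.8, 107 and 112 scaled FPKM in mit1D against 21.3 to 22.6 in WT (log2 fold change 2.20 ± 0.05, limma adjusted p = 6.1e-14). On the other side usp103, a gene of the spliceosome overlapping the start of mit1 by 35 bases, had 39.7, 40.9 and 41.1 against 23.0 to 24.5 (0.74 ± 0.04, limma adjusted p = 1.2e-08). The nearest genes that do not overlap mit1, air1 and ysa1, were also called higher in mit1D, by less. Their log2 fold changes were 0.20 ± 0.04 and 0.18 ± 0.04 (limma adjusted p = 0.0037 and 0.0021). In clr1D ysa1 was called higher too (limma adjusted p = 0.027, but 0.11 with clr1D and WT fitted alone). At the clr1 locus mhf1, a histone-fold gene that overlaps clr1 by 67 bases, rose to 41.6, 41.4 and 40.5 in clr1D from 32.3 to 34.4 (0.29 ± 0.03, limma adjusted p = 3.0e-05). SPNCRNA.1569, which lies mostly within mhf1, rose 1.36-fold. It may share reads with mhf1 and cannot be taken as a separate measurement. The gene coq8 at the other end of clr1, needed for coenzyme Q synthesis, was 30.1 in clr1D against 29.9. In clr3D, where clr1 is intact, mhf1 fell to 28.4, 26.7 and 29.0 (-0.25 ± 0.03, limma adjusted p = 8.5e-05). At the chp2 locus ogm4, a protein O-mannosyltransferase gene 214 bases away, rose 1.13-fold in chp2D (limma adjusted p = 0.0025).

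No gene of the table overlaps clr2. Its right neighbour mrps18, a gene of the mitochondrial ribosome that lies 9 bases away, stood at 19.2 ± 0.72 in WT and 19.6 ± 0.43 in clr1D. In clr3D it was 17.6 ± 0.41, with a log2 fold change of -0.12 ± 0.03 (limma adjusted p = 0.012, but 0.056 without WT replicate 2 and 0.083 with clr3D and WT fitted alone). On the left the non-coding RNA SPNCRNA.1039, 1451 bases away, had 5.43, 7.60 and 7.37 in WT. Its libraries stood at 9.03, 9.92 and 10.04 without clr1, at 9.82, 9.01 and 8.34 without clr2, and at 9.48, 10.24 and 9.01 without clr3, all above WT. It rose in these 3 strains (log2 fold changes 0.46 ± 0.09, 0.38 ± 0.09 and 0.45 ± 0.09, limma adjusted p = 0.0025, 0.014 and 0.0021), and in mit1D (0.33 ± 0.09, limma adjusted p = 0.016). The call in clr2D was lost under quantile normalization (adjusted p = 0.053) or without clr2D replicate 1 (adjusted p = 0.060), and that in mit1D without WT replicate 1 (adjusted p = 0.061) or mit1D replicate 3 (adjusted p = 0.056). With each strain fitted alone beside WT, the calls of SPNCRNA.1039 in clr1D, clr2D and mit1D were lost (adjusted p = 0.053, 0.13 and 0.067).

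**Figure D4:**
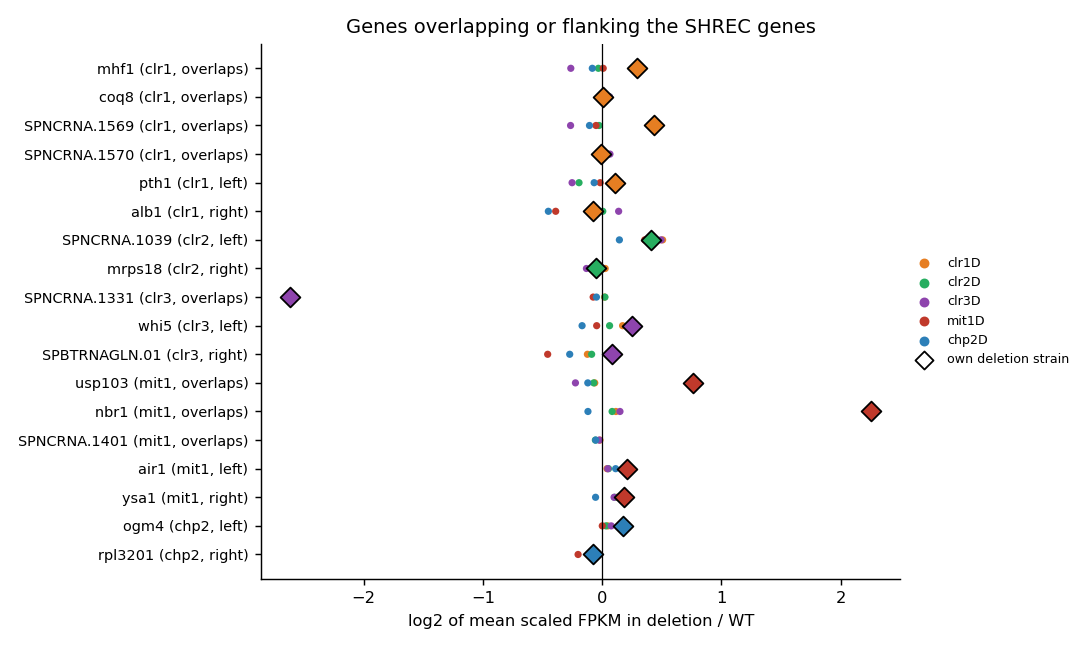
Log2 ratio of mean scaled FPKM in each deletion strain to WT (horizontal axis) for genes that overlap or flank a SHREC gene (named in brackets with their relation); diamonds mark the strain deleted for that SHREC gene, circles the other strains, and SPNCRNA.1401 in mit1D has no point because it is listed at 0. The largest shifts are those of nbr1 and usp103 in mit1D and of SPNCRNA.1331 in clr3D.

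For each SHREC gene the 3 genes with the most similar profile were named by Pearson correlation of log2 values over the 15 libraries where it is intact. These libraries share strains, depth and library series, and r is given as a description. For clr2, out of 6129 candidates, they were put1 (r = 0.981), which encodes proline dehydrogenase of proline breakdown, SPCC794.06 (r = 0.979) on chromosome III from 259301 to 262485, and SPCP20C8.03 (r = 0.979) on the same chromosome from 32624 to 33393. The clr2D libraries took no part in this choice, but the WT libraries did, and only 0.478% of all genes were called between clr1D and clr2D. The clr2D values are therefore given as a description and are no separate test of the likeness. The 3 genes were called higher in clr2D than in WT. The put1 level was 122 ± 0.29 in WT, 152 ± 3.29 in clr1D, 161 ± 2.51 in clr3D and 147 ± 3.40 in clr2D, with a log2 fold change of 0.26 ± 0.03 in clr2D (limma adjusted p = 3.0e-06). SPCC794.06 was 22.2 ± 0.24 in WT and 40.5 ± 2.45 in clr2D (0.83 ± 0.05, limma adjusted p = 9.9e-09). SPCP20C8.03 was 11.3 ± 0.27 in WT and 25.0 ± 2.45 in clr2D (1.07 ± 0.07, limma adjusted p = 2.3e-08). All 3 genes stood in mit1D and chp2D at 0.965 to 1.13 times WT. In clr1D and clr3D, which took part in the choice, they stood at 1.24 to 2.39 times WT.

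**Figure D5:**
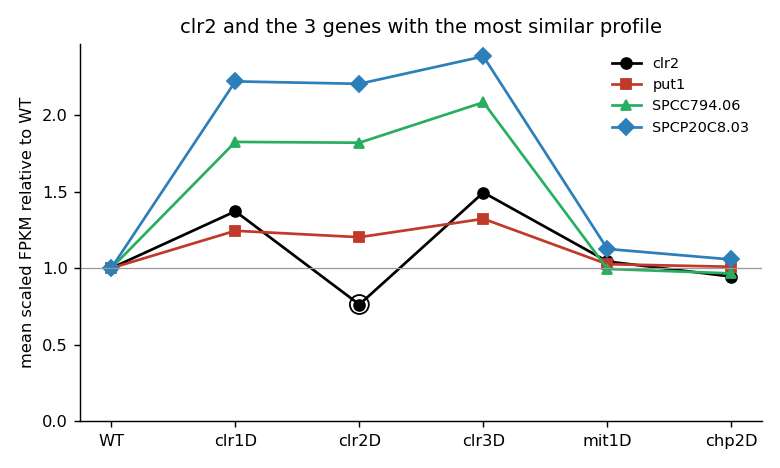
Mean scaled FPKM relative to the WT mean (vertical axis) of clr2 and of the 3 genes with the most similar profile, by strain; lines only join the points of a gene, and the ring marks clr2 in clr2D, where it is deleted. The 3 genes are 1.20 to 2.21 times WT in clr2D, where the reads left on clr2 are at 0.762 times WT.

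The other SHREC genes had lower r with their partners. They also varied less, with a coefficient of variation of 2.49% to 4.74% against 19.6% for clr2, so the r values are not directly comparable. The highest r was 0.932 for clr3 (SPCC613.02), 0.834 for clr1 (SPCC895.08c), 0.829 for chp2 (new11) and 0.779 for mit1 (SPNCRNA.920). Without the mit1D and chp2D libraries the r of clr3 with SPCC613.02 was 0.788, against 0.990 for clr2 with put1. Between SHREC genes, over the 12 libraries where both are intact, Pearson's r ran from -0.411 for mit1 and chp2 to 0.676 for clr3 and chp2.

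Genes that work with SHREC were counted from lists chosen with earlier results of these data known. Of 15 tested partner and recruitment factors, 1 fell with clr1 deleted, none was called with clr2 deleted (limma), 2 rose and 2 fell in clr3D, 1 rose and 2 fell in mit1D, and 1 rose in chp2D. As shares of the list these are 6.67%, 0%, 26.7%, 20% and 6.67%, none above the 17.6%, 12.3%, 29%, 27.2% and 22.6% of all genes called in the same strains. Their median log2 fold changes lay between -0.05 and 0.03, beside -0.01 to 0.00 over all tested genes. The HP1 gene swi6 was 59.8 in WT and 59.9 to 62.5 in the deletions, and was not called. The anti-silencing gene epe1 fell from 16.7 ± 0.56 to 14.5 ± 0.79 in clr1D and to 14.4 ± 0.72 in clr3D (limma adjusted p = 0.0063 and 0.0028); with FPKM as deposited it was not called in clr1D (adjusted p = 0.070), nor with clr1D and WT fitted alone (adjusted p = 0.059). The telomere gene taz1 rose from 15.9 ± 0.39 to 19.4 ± 0.89 in mit1D and 18.9 ± 0.32 in chp2D (limma adjusted p = 0.0017 and 0.0044).

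Of 19 factors of histone H3 methylation and RNA interference, 2 rose and 2 fell with clr1 deleted and 1 rose with clr2 deleted. In clr3D 1 rose and 4 fell, in mit1D 4 rose and 2 fell, and in chp2D 1 rose and 1 fell. The called shares, 21.1%, 5.26%, 26.3%, 31.6% and 10.5%, stand beside 17.6%, 12.3%, 29%, 27.2% and 22.6% of all genes. The list's median log2 fold changes were -0.03 to 0.04. The lists share members, so some calls are counted in more than 1 list. Both swi6 and epe1 are also among the partner factors, and sir2 is also among the other histone deacetylases below. The gene arb1, for a subunit of an Argonaute complex, fell from 28.1 ± 0.92 to 24.0 ± 0.64 in clr3D (limma adjusted p = 0.00026). The gene rik1, for a subunit of the methyltransferase complex, rose from 18.8 ± 0.19 to 21.5 ± 0.37 in clr1D and 21.7 ± 0.34 in clr2D (limma adjusted p = 0.00074 and 0.00050). It was also called higher in clr3D, by less (20.3 ± 0.89, limma adjusted p = 0.022). The methyltransferase gene clr4 was 7.51 ± 0.62 in WT and 8.92 ± 0.62 in mit1D, where its call (limma adjusted p = 0.013) was lost without mit1D replicate 2 (adjusted p = 0.076), WT replicate 2 (adjusted p = 0.051) or WT replicate 3 (adjusted p = 0.064), and with mit1D and WT fitted alone (adjusted p = 0.061). Of 5 other histone deacetylase genes none was called in clr1D or clr2D with limma, 1 fell in clr3D, 2 rose in mit1D and 1 rose in chp2D, or 20%, 40% and 20% of the list beside 29%, 27.2% and 22.6% of all genes; the list's medians were -0.06 to 0.06. The gene sir2 rose from 22.2 ± 0.67 to 25.3 ± 1.09 in chp2D (limma adjusted p = 0.0068, but 0.052 with FPKM as deposited). Of 10 other Snf2-family remodeler genes 4 fell in clr1D, 1 fell in clr2D, 2 rose and 1 fell in clr3D, 2 rose in mit1D, and 2 rose and 1 fell in chp2D, with medians of -0.08 to 0.04. The called shares were 40%, 10%, 30%, 20% and 30%, beside 17.6%, 12.3%, 29%, 27.2% and 22.6% of all genes. In clr1D snf21 fell from 40.6 ± 1.26 to 36.9 ± 0.22 (limma adjusted p = 0.0022, but 0.086 with FPKM as deposited and 0.052 with clr1D and WT fitted alone). It was also called lower in chp2D (37.7 ± 0.51, limma adjusted p = 0.012). In mit1D mot1 rose from 48.3 ± 2.46 to 55.4 ± 1.88 (limma adjusted p = 0.0041). The gene fft3 rose from 79.3 ± 0.41 to 84.4 ± 0.91 in mit1D and 86.5 ± 0.78 in chp2D (limma adjusted p = 0.0060 and 0.00069). With FPKM as deposited the log2 fold change of fft3 in mit1D was 0.06 in place of 0.09 and was not called (adjusted p = 0.16). In clr3D hrp3 rose from 36.2 ± 1.07 to 42.4 ± 1.16 and its relative hrp1 fell from 39.5 ± 1.23 to 34.5 ± 0.93 (limma adjusted p = 0.00014 and 9.8e-05).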

How the data were processed

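The members and gene lists were chosen with earlier results of these data known. RNA depleted of ribosomal RNA was sequenced in stranded libraries, per the labels' protocols, and reads were aligned with GSNAP (version 2013-02-25) to build ASM294v2, per the submitters' processing notes. Neither the counting program nor its strand setting is stated in the sources used here. The authors deposited 1 FPKM value per gene and library; 3 further sample columns match no label and were not used. FPKM times transcript length gave whole multiples of 1 read in 100% of nonzero values (within 0.1 read), which gave reads and depths.

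Scaling used, for each library, the median over 6484 genes of the ratio to the gene's geometric mean (factors 0.971 to 1.07). Testing was limited to genes reaching an FPKM of 1 in 3 or more libraries. R 4.3.3 and limma 3.58.1 (eBayes with trend) were run on log2(scaled FPKM + 1), 1 coefficient per genotype in 1 fit of 18 libraries, two-sided, Benjamini-Hochberg adjusted within each of 9 comparisons. Fold changes are on that log2 scale, and "times WT" are ratios of means. The code was checked on simulated data. P-values measure the spread between cultures of 1 strain. Names came from RefSeq (6844 of 7018 IDs matched), coding lengths and upstream sequence from RefSeq assembly ASM294v3. Other tools were Python 3.11.15, pandas 2.3.3, SciPy 1.17.1, Biopython 1.88 and matplotlib 3.10.9.

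Named genes were the SHREC genes, their overlapping and nearest neighbours, the 3 most correlated genes each (mean scaled FPKM of at least 5), swi6, clr4, and the most changed called list members. For list members other than auxotrophic, marker and mating-type genes, values are printed where the call held without any 1 library. Values of swi6 and clr4 are printed as well. Those of rik1 in clr3D and of snf21 in chp2D are printed without regard to that rule. For neighbours some calls that were lost are printed, with the settings that ended them. Same-numbered libraries deviated together among WT and the clr strains (r from 0.25 to 0.704 for every pair). They did not with mit1D or chp2D (r from -0.119 to 0.125). The main fit held no replicate block, so its p-values leave this pairing out. A block over WT and the clr libraries alone was fitted as an alternative only. Alternatives were other scalings, a pseudocount of 0.1, no filter, 2-group fits, a replicate block, voom on recovered reads and leaving out each library.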

Additional observations from a re-analysis of the deposited data

Results flagged for a closer look

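The clr2 level differed between clr1D and clr3D, 2 strains in which it was above WT: the test of that difference gave a log2 value of -0.12 for clr1D against clr3D (limma adjusted p = 0.013). Its libraries were 26.3 to 27.7 scaled FPKM in clr1D and 28.2 to 30.7 in clr3D. The groups hold 3 libraries each, too few for a test of single outlying libraries.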

How the results depend on the processing

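For the SHREC genes 32 log2 fold changes were recomputed under the alternatives that apply to each, 469 values in all; the replicate block over WT and clr libraries was not run for comparisons with mit1D or chp2D. Of these, 465 kept their side of the threshold, and none that was called changed sign. The 4 others were all the clr2 difference between clr1D and clr3D, which was -0.0749 with FPKM as deposited and -0.119 in the fit of only the 2 groups; without 1 library it ran from -0.151 to -0.0911. The cause was not tested. Counts of changed genes moved by over 1.5 times in the fit of only the 2 groups, to 544 of 1178 in clr1D, 326 of 823 in clr2D, 1089 of 1941 in clr3D, 1505 of 2353 between clr1D and clr3D and 1263 of 2121 between clr2D and clr3D. The count went from 11 to 7 between mit1D and chp2D with voom. With the replicate block 1489, 1131 and 2287 genes changed in clr1D, clr2D and clr3D; with a replicate block over WT and clr libraries alone, added after seeing the data, 1828 changed in clr1D and 1404 in clr2D. Neither block changed a call of a SHREC gene. Leaving each gene's own deletion strain out of the fit was also added after seeing the data and changed no call. For the other named genes 106 of 2771 values lost a call and 48 gained one, with no change of sign in a called value. Among list genes, calls of pcr1 and sir2 in clr3D, epe1, hst2 and sir2 in mit1D, hrr1 and mot1 in chp2D, mot1 in clr1D and snf21 in clr2D were each lost without 1 library. So were those of the auxotrophic genes his3 and leu1 in mit1D and chp2D. Among calls, the share that was higher went with FPKM as deposited from 48.5% to 71.5% between clr1D and clr3D and from 49.5% to 63.3% between clr2D and clr3D. With quantile normalization that share went from 51.2% to 44.6% in clr3D, from 54.1% to 46.6% in mit1D and from 52.9% to 47.4% in chp2D. It went from 48.5% to 54.6% between clr1D and clr3D and from 49.5% to 54.3% between clr2D and clr3D. Between mit1D and chp2D, with only 11 and 9 calls, it went from 54.5% to 44.4%. Depth limits the lowest values: mit1 in mit1D rests on 8 reads.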
